A study of Mus musculus with 75 samples.

Results

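The kidney clears organic anions, organic cations, urate and many drugs through transporters of the proximal tubule. Uptake carriers on the blood side load the tubule cell and efflux carriers on the urine side empty it, while other carriers on the urine side take back urate and carnitine. The levels of 9 such transporter genes were followed here in whole kidneys, 3 days after ligation of one ureter. They were the rows of the deposited count table with the symbols Slc22a2, Slc22a4, Slc22a5, Slc22a6, Slc22a8, Slc22a12, Slc47a1, Slco4c1 and Abcc2, 9 of 32245 genes. All 9 passed the filter on low counts in each arm of the study.

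The 75 libraries came from adult mice of both sexes with unilateral ureteral obstruction (UUO), the contralateral (CL) kidney serving as the control. In the first arm, mice received either human IgG Fc (IgG, 8 CL and 8 UUO libraries) or ABTAA, an ANGPT2-binding antibody that activates TIE2 on endothelium (7 CL and 7 UUO). These mice were C57BL6/J or wild-type animals of the breedings below. In the second arm, VeptpKO mice (6 CL, 8 UUO) carried floxed Veptp and the tamoxifen-inducible, endothelial Cdh5-CreERT2, and VeptpWT controls (7 CL, 8 UUO) were noninduced Veptp wt/lox mice with the same Cre. More VeptpWT UUO libraries are labelled than the study's methods give mice of that group, and which count is right is not known. In the third arm, PdgfbKO mice (4 CL, 4 UUO) carried floxed Pdgfb and a tamoxifen-induced CreERT2 under the ubiquitous Actb promoter, so that deletion was not limited to 1 cell type, and PdgfbWT controls (4 CL, 4 UUO) were Cre-negative Pdgfb wt/lox or lox/lox mice. The knockout lines were on a mixed background, and all mice with UUO received the analgesic carprofen. The PdgfbWT CL group included 2 sham-operated kidneys that the labels do not mark. The labels do not say which CL and UUO libraries came from the same mouse, and p-values below measure the spread between these libraries.

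Total counts per library ran from 172827 to 2341800 (median 757897). The 9 genes had median counts of 12 (Slco4c1) to 264 (Slc47a1) per library, and 3 libraries had no count of Slco4c1, which allows up to 3 counts there. All 10 proximal tubule markers in a list without these 9 genes had counts in every library. The libraries bear names of 2 forms, called here plain (a letter and a number) and spaced (a letter and a number set apart by a low line). What the forms stand for is not given. The Pdgfb arm has plain names alone, and the other groups hold 2 to 4 plain and 3 or 4 spaced names. Xist and Y-linked counts of at least 10 occurred together in 22 of 45 plain and 2 of 30 spaced libraries, including all 4 of PdgfbKO UUO. Ptprb, the gene of VEPTP, had 32.6 ± 5.8 CPM (counts scaled to library size, SD, n = 6) in VeptpKO CL against 50.8 ± 18.7 (SD, n = 7) in VeptpWT CL, and 31.4 ± 17.6 against 48.2 ± 26.2 in UUO (SD, n = 8 each). Pdgfb stood at 19.0 ± 4.01 CPM in libraries labelled PdgfbKO CL against 10.4 ± 6.75 in PdgfbWT CL, and at 37.2 ± 3.31 against 53.2 ± 6.52 in UUO (SD, n = 4 each). The CL libraries labelled PdgfbKO were thus not the lower ones, and neither gene passed the adjusted test between genotypes in either kidney.

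Positions are given on GRCm38 (GENCODE M21). Slc22a8 (chr19:8591254-8611835) and Slc22a6 (chr19:8618039-8628299), which encode the organic anion carriers OAT3 and OAT1 on the blood side, are neighbours on the plus strand with 6203 bases between them. Slc22a5 (chr11:53864542-53891660) and Slc22a4 (chr11:53983123-54028090), for the carnitine carrier OCTN2 and the ergothioneine carrier OCTN1, are neighbours on the minus strand. Slc22a21, a close relative of Slc22a5, had 23.8 ± 14.4 CPM in IgG CL (SD, n = 8), and how reads that match both were counted is not known. Slc47a1 (chr11:61343401-61378345, minus strand) encodes the cation efflux carrier MATE1. Slc22a2 (chr17:12584132-12628488, plus strand) encodes the cation uptake carrier OCT2. Slco4c1 (chr1:96816270-96872171, minus strand) encodes the organic anion carrier OATP4C1, and it overlaps the antisense gene Panct2 without a shared exonic base. Abcc2 (chr19:43782192-43840740, plus strand) encodes the efflux pump MRP2. Slc22a12 (chr19:6535845-6543032, minus strand) encodes the urate carrier URAT1.

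Slc22a6 and Slc22a8 are shown with 120 bases before their starts, since both hold the letters GTTAAT, a core bound by HNF1 factors of the proximal tubule. The sequences are from RefSeq (GRCm38.p6), both on the plus strand, with the motif in capitals.
Slc22a8, chr19:8593062-8593181: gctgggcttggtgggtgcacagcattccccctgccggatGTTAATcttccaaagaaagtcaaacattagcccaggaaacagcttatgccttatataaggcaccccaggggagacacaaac
Slc22a6, chr19:8617876-8617995: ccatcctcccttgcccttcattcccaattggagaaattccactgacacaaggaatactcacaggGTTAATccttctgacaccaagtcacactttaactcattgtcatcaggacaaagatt
The motif began at position -81 of Slc22a8 and -56 of Slc22a6, counted from the RefSeq start, which for Slc22a8 lies inside the GENCODE gene. On either strand (GTTAAT or ATTAAC), 2 of the 8 members with a RefSeq window of 300 bases held it, against 7.1% of 32851 windows. AGGTCA, a core of nuclear receptor sites, was in 1 of 8 (Abcc2) against 16.3%, and AGAACA, a core of androgen receptor sites, in 1 of 8 (Slco4c1) against 19.0%. These matches describe letters in a window and were not tested as sites.

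The transporter genes stood lower in obstructed than in contralateral kidneys in each of the control groups. In IgG-treated mice, 7 of 9 passed edgeR's quasi-likelihood test as lower with UUO (adjusted p under 0.05, Benjamini-Hochberg over all genes), where 18.4% of all genes tested did. The median log2 fold change of the 9 genes was -1.05, and that of all genes 0.01. In VeptpWT 6 of 9 passed as lower, where 8.38% of genes did, and in PdgfbWT 7 of 9, where 19.4% did. Scaling by total counts alone, without TMM, moved the median of all genes to 0.21 in IgG, 0.13 in VeptpWT and 0.4 in PdgfbWT. It left 6, 4 and 7 of the 9 genes lower, and turned the balance over all genes from 1759 lower and 1531 higher to 1123 and 2390 in IgG, from 999 and 1195 to 550 and 1367 in VeptpWT, and from 2119 and 1957 to 1166 and 4336 in PdgfbWT. In bulk kidney, fewer cells of a type and less RNA per cell cannot be told apart. The 10 proximal tubule markers moved too. Their summed level in IgG-treated mice was 8998 to 13281 CPM in CL and 3283 to 6401 CPM in UUO kidneys, 10 of 10 passed as lower, and the part of this shift in the transporter values was not tested.

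**Figure D1:**
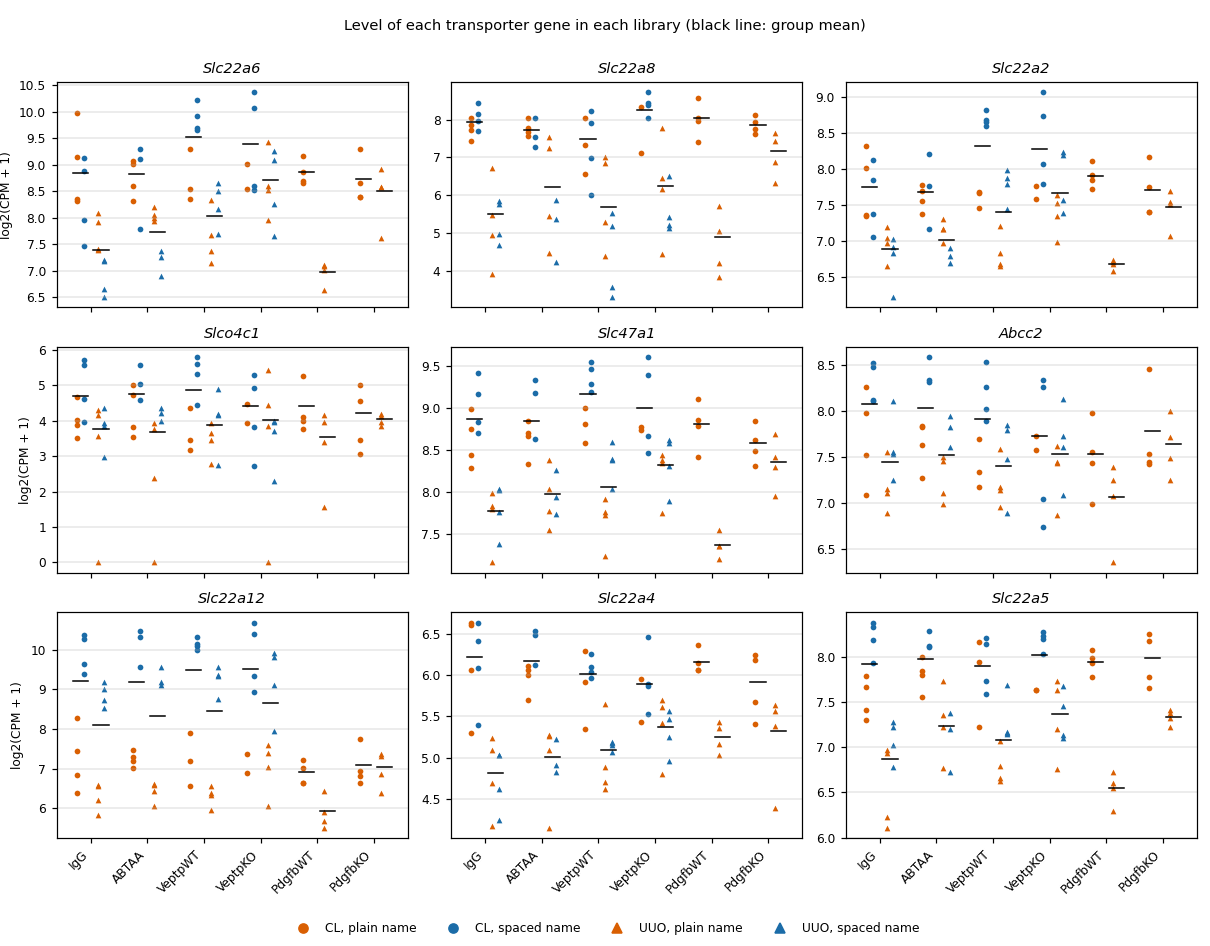
Level of each transporter gene in each of the 75 libraries, as log2(CPM + 1), with CL libraries as circles, UUO libraries as triangles, name forms in 2 colours and group means as black lines. CL groups stand above UUO groups for most genes, and Slc22a12 splits by name form within every group that has both forms.

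Among the uptake carriers on the blood side, Slc22a8 changed most. It stood at 171, 238 and 346 CPM (lowest, median and highest library) in IgG CL and at 14.2, 36.9 and 104 CPM in IgG UUO. The groups did not overlap, and the UUO mean was 18.3% of the CL mean (log2 fold change -2.47, SE 0.35, adjusted p = 9.32e-07). In VeptpWT, Slc22a8 was at 63, 161 and 298 CPM in CL and 8.92, 36.9 and 129 CPM in UUO, which overlapped (-1.84, SE 0.48, adjusted p = 0.00638). It lost the VeptpWT call among plain names alone (-1.16, adjusted p = 0.14), without libraries with both Xist and Y-linked counts (-1.68, adjusted p = 0.0501) and without the spaced names numbered 3, 4, 7 and 8 (-1.41, adjusted p = 0.183), whose genotype labels conflict as described with the VeptpKO values. In PdgfbWT, the 4 CL libraries had 246, 260, 170 and 380 CPM and the 4 UUO libraries 13.3, 51.3, 32.4 and 17.6 CPM. Every UUO library was under every CL library there, at 10.8% of the CL mean (-3.12, SE 0.31, adjusted p = 2.14e-08).

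Slc22a6 stood at 176, 400 and 1011 CPM in IgG CL and at 89.8, 157 and 271 CPM in IgG UUO. The groups overlapped, but within each name form they did not, and the UUO mean was 36.2% of the CL mean (log2 fold change -1.44, SE 0.28, adjusted p = 9.81e-05). It fell by 1.45 on the log2 scale in VeptpWT (SE 0.32, adjusted p = 0.00153, and 0.053 without those 4 numbers) and by 1.89 in PdgfbWT (SE 0.22, adjusted p = 1.87e-07). Slc22a2, the uptake carrier for cations such as creatinine, was at 132, 196 and 318 CPM in IgG CL and at 73.3, 121 and 145 CPM in IgG UUO. The ranges overlapped at their ends (log2 fold change -0.85, SE 0.17, adjusted p = 0.000183). Its log2 fold changes were -0.89 in VeptpWT (SE 0.26, adjusted p = 0.0127) and -1.24 in PdgfbWT (SE 0.16, adjusted p = 7.65e-07). The VeptpWT call was lost without TMM scaling (-0.76, adjusted p = 0.133) and without those 4 numbers (-0.81, adjusted p = 0.133). Slco4c1, the least counted of the 9 genes, had 10.4, 19.5 and 51.6 CPM in IgG CL and 0, 14.0 and 19.5 CPM in IgG UUO. It passed the test in none of the control groups, with log2 fold changes of -0.77, -1.04 and -0.86 (adjusted p = 0.123, 0.11 and 0.0936). Other settings gave Slco4c1 a call or turned it. In IgG it passed among spaced names (-1.21, adjusted p = 0.026) and stood at 0.07 among plain names (adjusted p = 0.939). In VeptpWT it passed with form as a covariate (adjusted p = 0.0319), with form and Xist (0.0256), among spaced names (0.0409) and with all 12 groups of the study in 1 fit (0.033), and in PdgfbWT with no filter on low counts (0.0212) and without libraries with both Xist and Y-linked counts (0.0494).

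Of the efflux carriers on the urine side, Slc47a1 passed in all 3 control groups. Its levels were 311, 444 and 681 CPM in IgG CL and 142, 224 and 262 CPM in IgG UUO. Every UUO library was under every CL library (log2 fold change -1.07, SE 0.16, adjusted p = 2.82e-06), and the log2 fold changes were -1.08 in VeptpWT (SE 0.2, adjusted p = 0.000234) and -1.44 in PdgfbWT (SE 0.16, adjusted p = 9.42e-08). Abcc2 was at 135, 277 and 366 CPM in IgG CL and at 118, 169 and 275 CPM in IgG UUO, which overlapped. It passed in IgG (-0.6, SE 0.2, adjusted p = 0.0166) and not in VeptpWT (-0.49, adjusted p = 0.135) or PdgfbWT (-0.45, adjusted p = 0.129). The IgG call was lost without TMM scaling (-0.38, adjusted p = 0.171), among plain names alone (-0.44, adjusted p = 0.164) and without libraries with both Xist and Y-linked counts (-0.48, adjusted p = 0.187), and with no filter on low counts Abcc2 passed in PdgfbWT (-0.43, adjusted p = 0.0352).

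Both OCTN genes were lower with UUO in all 3 control groups, though some of these calls depended on the setting. Slc22a5 stood at 157, 232 and 332 CPM in IgG CL and at 68.1, 122 and 154 CPM in IgG UUO, with no overlap. Its log2 fold changes were -1.04 in IgG (SE 0.17, adjusted p = 9.08e-06), -0.8 in VeptpWT (SE 0.17, adjusted p = 0.00133) and -1.39 in PdgfbWT (SE 0.14, adjusted p = 2.83e-08). In VeptpWT it did not pass without TMM scaling (-0.62, adjusted p = 0.0767) or without the numbers 3, 4, 7 and 8 (-0.7, adjusted p = 0.0608). Slc22a4 stood at 38.5, 75.4 and 98.3 CPM in IgG CL and at 17.0, 28.2 and 36.6 CPM in IgG UUO, again with no overlap. It changed by -1.39 in IgG (SE 0.2, adjusted p = 9.21e-07), -0.92 in VeptpWT (SE 0.17, adjusted p = 0.00027) and -0.91 in PdgfbWT (SE 0.19, adjusted p = 0.000488). It did not pass in VeptpWT among plain names alone (-0.83, adjusted p = 0.0532) or in PdgfbWT without libraries with both Xist and Y-linked counts (-0.65, adjusted p = 0.127).

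In the IgG group, 4 of the 9 genes (Slc22a8, Slc47a1, Slc22a4 and Slc22a5) had every UUO library under every CL library, where 5.32% of genes did. In PdgfbWT 7 did, against 17.3%, and in VeptpWT 0, against 2.33%. Within a name form more genes stood apart. Among plain names 6 did in IgG, against 12.4% of genes, and 5 in VeptpWT, against 10.7%. Among spaced names 8 did in IgG, against 14.9%, and 7 in VeptpWT, against 16%.

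**Figure D2:**
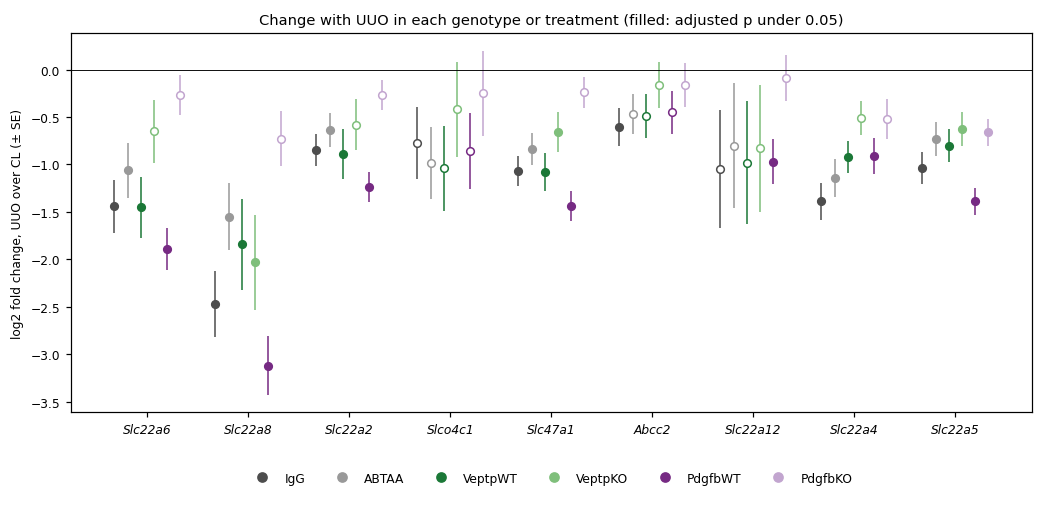
Log2 fold change of UUO over CL with its standard error for each transporter gene in the 6 genotypes or treatments, filled where the adjusted p was under 0.05. Slc22a8 has the lowest value in all 6 sets, and most points of VeptpKO and PdgfbKO lie nearer to 0 than those of their controls.

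Slc22a12 depended on the name form more than on the kidney. In IgG-treated mice, the plain CL libraries had 113, 308, 83.5 and 174 CPM and the spaced CL libraries 671, 800, 1315 and 1238 CPM. In the IgG UUO kidneys, plain libraries had 95.1, 93.4, 73.7 and 55.7 CPM and spaced libraries 370, 424, 581 and 511 CPM. The forms did not overlap in either kidney, and CL and UUO overlapped among plain but not among spaced libraries. In ABTAA-treated mice, plain libraries had 145, 129, 176 and 156 CPM in CL and 85.9, 96.3, 65.3 and 96.0 CPM in UUO, and spaced libraries had 756, 1420 and 1264 CPM in CL and 553, 585 and 753 CPM in UUO. There, every UUO library was under every CL library of its form.

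The VeptpWT libraries showed the same split. Plain libraries had 145, 94.4 and 238 CPM in CL and 93.1, 82.8, 80.2 and 61.6 CPM in UUO, and spaced libraries had 1123, 1020, 1097 and 1284 CPM in CL and 433, 755, 646 and 661 CPM in UUO. In VeptpKO, plain libraries had 118 and 164 CPM in CL and 167, 193, 132 and 65.7 CPM in UUO, and spaced libraries had 1636, 484, 646 and 1345 CPM in CL and 891, 247, 549 and 964 CPM in UUO. CL and UUO overlapped in VeptpKO within each form, and in VeptpWT within neither.

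Averaged over groups, the spaced mean of Slc22a12 was 6.94 times the plain mean in CL and 6.21 times in UUO kidneys, against ratios of 0.48 to 1.96 for the other 8 genes. At equal group, the log2 difference between the forms, spaced minus plain, was 2.73 in the ABTAA arm (SE 0.14) and 2.7 in the Veptp arm (SE 0.2). Of the 9 genes 5 differed between forms in each arm, where 40.4% and 62.4% of all genes did, so that a difference between forms was common. Without TMM scaling the median difference of all genes moved from 0.03 to 0.14 in the ABTAA arm and from 0.09 to 0.54 in the Veptp arm, where 6853 genes were then higher in spaced libraries and 1664 lower (4053 and 3385 with TMM). In the ABTAA arm, Slc22a6 was lower in spaced libraries (-0.55, adjusted p = 0.0103), and Slco4c1 (0.7), Abcc2 (0.56) and Slc22a5 (0.33) were higher (adjusted p = 0.0169, 3.37e-05 and 0.0108). In the Veptp arm, Slc22a6 (0.54), Slc22a2 (0.79), Slc47a1 (0.39) and Abcc2 (0.34) were higher (adjusted p = 0.0201, 1.19e-06, 0.00449 and 0.0425), and with Xist as a covariate Slc22a6 and Abcc2 turned to -0.1 and -0.08 and Slc47a1 came to 0.06 (adjusted p = 0.669). In the ABTAA arm, that covariate brought Slco4c1 to 0.36 (adjusted p = 0.204). Without the libraries that had both Xist and Y-linked counts, Slc22a6 (-0.62, adjusted p = 0.0714) and Slc22a5 (0.14, adjusted p = 0.463) lost the call in the ABTAA arm, and Slc22a6, Slc47a1 and Abcc2 lost it in the Veptp arm (adjusted p = 0.0783, 0.056 and 0.0703). The Abcc2 call in the Veptp arm was also lost with a mean count of at least 20 (adjusted p = 0.0687), without the numbers 3, 4, 7 and 8 (0.175) and without VeptpWT CL replicate 1, 2, 3 or 7, VeptpKO CL replicate 3 or 6, VeptpWT UUO replicate 2, 3, 4, 6 or 8 or VeptpKO UUO replicate 4 or 8 (0.0506 to 0.085). Other genes gained a call on leaving out 1 library. These were Slc47a1 in the ABTAA arm (lowest adjusted p = 0.0246), and Slc22a8 (0.0271) and Slco4c1 (0.0215) in the Veptp arm. Slc22a12 was known to differ between forms when it was chosen, and its values by form are a description.

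Slc22a12 overlaps the gene of the synaptic protein neurexin 2, Nrxn2 (chr19:6418731-6544169), which runs on the other strand. The Nrxn2 3′ UTR (chr19:6542388-6544169) covers the start of Slc22a12, and 682 of the 2263 exonic bases of Slc22a12 (30.1%) are also exonic in Nrxn2. No source used here says whether the counting used strand, and without strand the reads of both genes cannot be told apart there. Nrxn2 had spaced means of 7.01 times the plain mean in CL and 6.35 times in UUO kidneys. Over all 75 libraries Nrxn2 was the gene most like Slc22a12 of 10152 compared (Spearman rho 0.944). Within plain names its rho was 0.85 (rank 7, n = 45) and within spaced names 0.722 (rank 416, n = 30). Within forms the most alike genes were Csad (0.889), Ggt1 (0.878) and Acsm2 (0.871) among plain libraries, and Pepd (0.942), Gm19950 (0.935) and Castor2 (0.931) among spaced libraries.

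**Figure D3:**
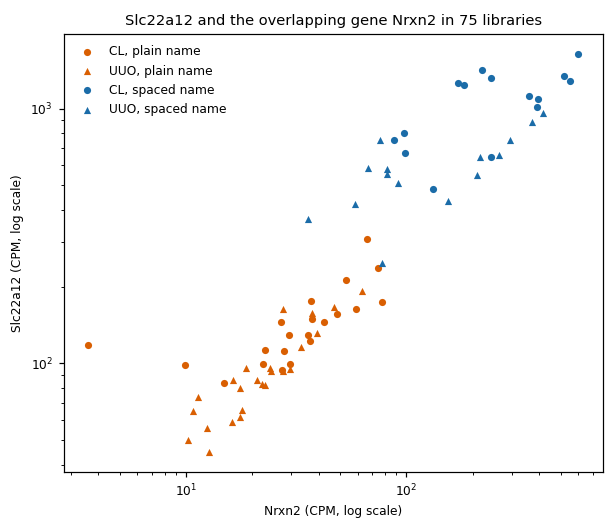
Slc22a12 against Nrxn2 in 75 libraries, both in CPM on log scales, with kidney by marker and name form by colour. Within each group that holds both forms, the spaced libraries lie above the plain ones on the Slc22a12 axis, and UUO libraries lie lower on average within each form.

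Slc22a12 passed the test with UUO in PdgfbWT, where all libraries have plain names (log2 fold change -0.97, SE 0.24, adjusted p = 0.00203). That call was lost with all 12 groups in 1 fit (-0.98, adjusted p = 0.491) and without libraries with both Xist and Y-linked counts (-0.87, adjusted p = 0.0932). In IgG, the log2 fold change over both forms was -1.05 (SE 0.62, adjusted p = 0.199), and with no filter on low counts it passed (-1.08, adjusted p = 0.000115). Among plain libraries alone it was -0.9 (adjusted p = 0.0196) and among spaced libraries -1.08 (adjusted p = 0.000696), and the UUO mean was 46.9% of the CL mean in each form. With form as a covariate it was -1.03 in IgG (adjusted p = 3.21e-05), -0.81 in ABTAA (adjusted p = 0.00142) and -0.87 in VeptpWT (adjusted p = 0.00677). In VeptpKO it did not pass over both forms (-0.83, adjusted p = 0.564) or with form as a covariate (-0.4, adjusted p = 0.325), and it did with form and Xist (-0.81, adjusted p = 0.000471). The UUO response of Slc22a12 did not pass a test of its difference between forms in either arm (log2 -0.04, SE 0.29, adjusted p = 0.984 and -0.21, SE 0.39, adjusted p = 0.914). None of the 9 genes did so, where 0% and 0.369% of genes did, and the lowest unadjusted p was that of Slc22a8 in the Veptp arm (log2 -1.52, SE 0.55, unadjusted p = 0.00882, adjusted p = 0.327). Slc22a8 passed this test under other settings, in the Veptp arm with Xist as a covariate (-1.67, adjusted p = 0.0479) or with no filter on low counts (-1.52, adjusted p = 1.69e-07), and in the ABTAA arm with no filter (-0.84, adjusted p = 0.0446) or without the libraries that had both Xist and Y-linked counts (-1.89, adjusted p = 0.00488).

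The ABTAA comparison asked whether TIE2 activation changes the response of the kidney to UUO. In ABTAA-treated mice, 6 of 9 transporter genes were lower with UUO (Slc22a6, Slc22a8, Slc22a2, Slc47a1, Slc22a4 and Slc22a5), where 12.5% of genes were. Slc22a8 stood at 155, 202 and 261 CPM in CL and 17.8, 43.2 and 186 CPM in UUO, at 35.2% of the CL mean (log2 fold change -1.55, SE 0.35, adjusted p = 0.00102). Slc22a6 stood at 219, 515 and 628 CPM in CL and 119, 243 and 292 CPM in UUO (-1.06, SE 0.29, adjusted p = 0.0061). Both overlapped between the kidneys, and Slc22a4 was the gene among the 9 whose groups did not overlap, where 3.19% of genes did not. Within plain names 5 of 9 stood apart, against 7.58%, and within spaced names 9 of 9, against 20.4%. Among plain names alone 2 of 9 genes passed as lower (Slc22a4 and Slc47a1), where 4.38% of genes did. Slc22a6 (-0.68, adjusted p = 0.0955), Slc22a8 (-1.17, adjusted p = 0.0598), Slc22a2 (-0.39, adjusted p = 0.208) and Slc22a5 (-0.49, adjusted p = 0.108) lost the call there, and Slc22a6 also without libraries with both Xist and Y-linked counts (-1.11, adjusted p = 0.0687). The numbers 9, 11 and 12 of the spaced names occur in both kidneys of ABTAA-treated mice and paired their libraries. A fit on those 3 pairs called all 9 genes lower, where 17% of genes were. An unpaired fit on the same spaced libraries called 8 of them, where 13.1% were, Abcc2 (-0.56, adjusted p = 0.0257) and Slc22a12 (-0.81, adjusted p = 0.0168) included. Slco4c1 passed in the paired fit (-0.86, adjusted p = 0.0445) and narrowly missed the threshold in the unpaired one (-0.92, adjusted p = 0.0558). In fits on all libraries, Slco4c1, Abcc2 and Slc22a12 each passed with form as a covariate (adjusted p = 0.0157, 0.0159 and 0.00142) and with no filter on low counts (0.00609, 0.0384 and 0.00946). Abcc2 also passed without ABTAA CL replicate 4 (-0.58, adjusted p = 0.0334), and Slco4c1 without IgG CL replicate 7 or 8, ABTAA CL replicate 2 or 4 or ABTAA UUO replicate 7 (lowest adjusted p = 0.0244).

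Between ABTAA and IgG, edgeR's quasi-likelihood test called no gene of 9579 in the main fit. This held in UUO kidneys, in CL kidneys and in the difference of the UUO responses, where 344, 311 and 323 genes had an unadjusted p under 0.05. None of the 9 transporter genes was among those, and DESeq2 also called none of the 9. With no filter, 6 of 24646 genes passed in UUO kidneys and 1 in CL kidneys. In UUO kidneys 8 of the 9 log2 values were above 0 (range -0.12 to 0.68), and the lowest p was that of Slc22a5 (0.33, SE 0.18, unadjusted p = 0.0664, adjusted p = 0.999). In the difference of the responses it was that of Slc22a8 (0.92, SE 0.49, unadjusted p = 0.0706, adjusted p = 1.0). The difference of the responses and the comparisons within each kidney rest on the same libraries.

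In VeptpKO, 3 of 9 genes were lower with UUO, where 3.47% of genes were. Slc22a8 stood at 139, 328 and 421 CPM in CL and 20.9, 56.6 and 218 CPM in UUO (log2 fold change -2.03, SE 0.5, adjusted p = 0.0085). Slc22a5 changed by -0.63 (SE 0.18, adjusted p = 0.0261) and Slc47a1 by -0.66 (SE 0.21, adjusted p = 0.0442). Slc22a6 stood at 366, 453 and 1319 CPM in CL and 201, 377 and 684 CPM in UUO and did not pass (-0.65, SE 0.33, adjusted p = 0.268). All 9 overlapped between the kidneys, where 0.545% of genes did not. Within plain names Slc47a1 alone stood apart, against 7.63%, and within spaced names Slc22a8 and Slc22a5, against 10.7%. The count of 3 genes was 1 without TMM scaling, with no filter, with edgeR's exact test or with the compared groups alone, Slc22a8 each time. Over all genes 244 of 11916, 392 of 24538, 272 of 10713 and 204 of 10713 were lower there. Without the numbers 3, 4, 7 and 8 the count of the 9 genes was 0 (Slc22a8 -1.69, adjusted p = 0.244), where 14 of 11034 genes were lower. With Xist as a covariate it was 5, where 759 of 11916 genes were lower. Slc22a6 at -0.86 (adjusted p = 0.00571) and Slc22a2 at -0.75 (adjusted p = 0.00381) were among those 5. Among plain names alone it was 0 by edgeR, as for all 7778 genes tested there, and Slc47a1 alone of the 9 had an unadjusted p under 0.05 (-0.47, unadjusted p = 0.0494). Slc47a1 lost the call without VeptpKO CL replicate 3 or 6 or UUO replicate 1, 3, 4, 6 or 7 (adjusted p = 0.0502 to 0.165), and Slc22a5 without CL replicate 3, 4 or 5 or UUO replicate 1, 6 or 7 (0.0512 to 0.0662). Slc22a4 passed without CL replicate 2 (-0.58, adjusted p = 0.0463). The count was also 1 without VeptpKO CL replicate 3 or without UUO replicate 1, 6 or 7, and 7 with form and Xist as covariates, where 13.7% of genes were lower. Slc22a6 was among those 7 (-0.93, adjusted p = 0.000267).

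In the main fit, edgeR's quasi-likelihood test called no gene of 11916 between VeptpKO and VeptpWT. This held in UUO kidneys, CL kidneys and the difference of the responses, where 424, 229 and 324 genes had an unadjusted p under 0.05. In UUO kidneys all 9 log2 values were above 0 (0.07 to 0.67), and Slc22a6 alone had an unadjusted p under 0.05 (0.67, SE 0.31, unadjusted p = 0.0398, adjusted p = 1.0). By DESeq2, none of the 9 passed either. Over all genes, edgeR's exact test called 4 of 10829 in UUO kidneys, and a fit with form and Xist 19 of 11916. All 12 groups in 1 fit gave 2 of 12210 in CL kidneys and 4 in the difference. Of the 8 spaced numbers that occur in both kidneys of this arm, 4 carry the other genotype label in UUO than in CL. The VeptpKO and VeptpWT values rest on labels with that conflict. Libraries of the same number had the same class of Xist or Y-linked counts, except number 4. Its CL library had 15 Xist and 188 Y-linked counts, and its UUO library 2 and 245.

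The Pdgfb arm asked whether loss of PDGFB, a growth factor for pericytes and fibroblasts, alters the UUO response. Of the 9 transporter genes, 6 stood higher in UUO kidneys labelled PdgfbKO than in PdgfbWT UUO, where 12% of genes did. Over all genes 1315 were higher and 719 lower, which without TMM scaling turned to 667 and 2378 with the median at -0.28, and the same 6 passed as higher under both scalings. Slc22a8 had 199, 117, 172 and 78.6 CPM in the libraries labelled PdgfbKO UUO, against the PdgfbWT UUO values of 13.3 to 51.3 CPM. Every library labelled PdgfbKO was above every PdgfbWT library (log2 2.21, SE 0.32, adjusted p = 2.12e-05). Slc22a6 had 382, 383, 484 and 195 CPM against 98.4, 128, 135 and 137 CPM, also without overlap (1.52, SE 0.22, adjusted p = 2.34e-05). Slc47a1 had 340, 313, 411 and 247 CPM against 186, 163, 163 and 146 CPM (0.98, SE 0.16, adjusted p = 9.84e-05), and the groups stood apart as well.

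Slc22a2 had 184, 181, 206 and 133 CPM in PdgfbKO UUO against 101, 95, 103 and 105 CPM in PdgfbWT UUO (log2 0.79, SE 0.16, adjusted p = 0.000969). Slc22a5 had 159, 166, 169 and 148 CPM against 77.5, 105, 96.5 and 92.7 CPM (0.78, SE 0.14, adjusted p = 0.000386). Neither overlapped, which made 5 genes with every PdgfbKO library above every PdgfbWT library, where 12.5% of genes were. Slc22a12 passed but overlapped, with 164, 158, 116 and 82.5 CPM against 50.2, 86.1, 58.8 and 44.9 CPM (1.1, SE 0.24, adjusted p = 0.00158). Abcc2 had 255, 210, 179 and 152 CPM against 167, 152, 134 and 81 CPM and did not pass (0.58, SE 0.23, adjusted p = 0.0822), though it did by edgeR's exact test (0.57, adjusted p = 0.0243), with the compared groups alone (adjusted p = 0.0353), with no filter (adjusted p = 0.00669) and without PdgfbKO CL replicate 1 (adjusted p = 0.0332) or PdgfbKO UUO replicate 4 (adjusted p = 0.0467). Slc22a4 (0.17, adjusted p = 0.623) and Slco4c1 (0.43, adjusted p = 0.521) did not pass either.

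**Figure D4:**
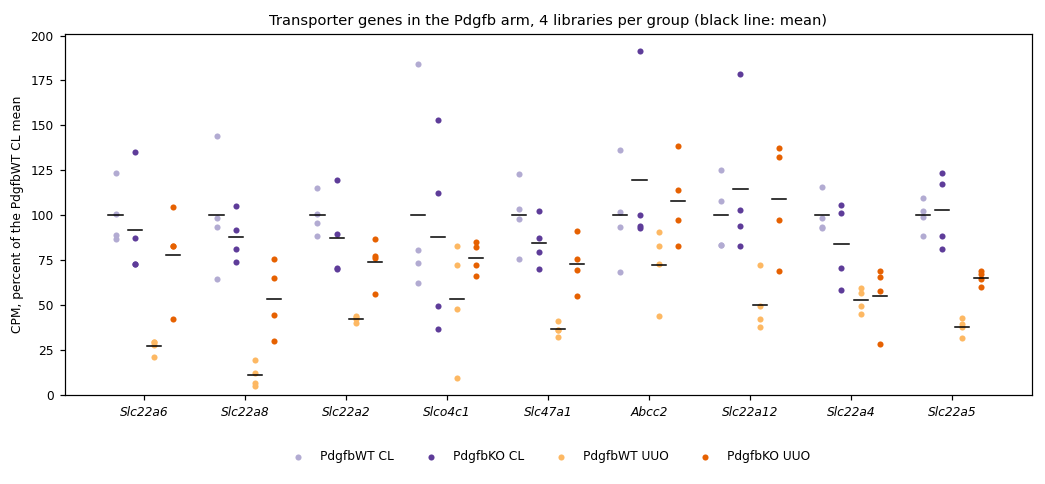
CPM of each transporter gene in the 16 libraries of the Pdgfb arm, in percent of the PdgfbWT CL mean, with black lines at group means. For Slc22a6, Slc22a8, Slc22a2, Slc47a1 and Slc22a5 every library labelled PdgfbKO UUO stands above every PdgfbWT UUO library.

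Within the libraries labelled PdgfbKO, Slc22a5 alone was lower with UUO (log2 fold change -0.66, SE 0.14, adjusted p = 0.00602), 1 of 9 where 2.4% of genes were, and with all 12 groups in 1 fit it did not pass (adjusted p = 0.187). Its CL libraries had 200, 304, 289 and 218 CPM, all above the UUO values, which held for this gene alone among the 9 and for 5.14% of genes. Slc22a6 had 336, 624, 403 and 337 CPM in CL, and its UUO mean was 84.9% of the CL mean (-0.27, SE 0.21, adjusted p = 0.538), against 26.9% in PdgfbWT. Slc22a8 had 214, 195, 277 and 243 CPM in CL, and its UUO mean was 61.0% of the CL mean (-0.73, SE 0.29, adjusted p = 0.149). It passed with no filter (-0.72, adjusted p = 0.000931) and with Xist as a covariate (-0.78, adjusted p = 0.0455).

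The difference of the UUO responses itself passed for 5 of 9 genes, where 6.66% of genes passed as higher. Over all genes the difference was higher for 728 and lower for 207, and without TMM scaling higher for 315 and lower for 628. It was 2.39 on the log2 scale for Slc22a8 (SE 0.42, adjusted p = 0.000816), 1.62 for Slc22a6 (SE 0.3, adjusted p = 0.0013) and 1.21 for Slc47a1 (SE 0.22, adjusted p = 0.00124). For Slc22a2 it was 0.97 (SE 0.22, adjusted p = 0.00717) and for Slc22a5 0.73 (SE 0.2, adjusted p = 0.0236). With all 12 groups of the study in 1 fit none of the 5 passed (adjusted p = 0.108 to 0.412), with log2 values of 0.74 (Slc22a5) to 2.45 (Slc22a8) that were close to these, and 0.172% of genes passed as higher. Without TMM scaling Slc22a2 (0.68, adjusted p = 0.0601) and Slc22a5 (0.44, adjusted p = 0.166) lost the call. Slc22a5 also lost the call without PdgfbKO CL replicate 3 (adjusted p = 0.0562) or 4 (0.0671), PdgfbWT UUO replicate 1 (0.0565) or PdgfbKO UUO replicate 2 (0.0504). Slc22a12 did not pass (0.88, SE 0.33, adjusted p = 0.109) but did with no filter (adjusted p = 0.0129) and without PdgfbKO CL replicate 1 (adjusted p = 0.0129), PdgfbWT UUO replicate 3 (0.034) or PdgfbKO UUO replicate 4 (0.0334). In CL kidneys none of 10923 genes passed between the genotypes in edgeR's main fit, 378 had an unadjusted p under 0.05 and none of the 9 was among them. DESeq2 called none of the 9 there.

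Other values moved with this contrast. The summed proximal tubule markers were 4893 to 8040 CPM in the libraries labelled PdgfbKO UUO and 2277 to 3475 CPM in PdgfbWT UUO, and 9 of 10 passed as higher. The 4 injured tubule markers summed to 670 to 1221 CPM against 1252 to 2051 CPM, with 2 of 4 lower, and the 4 fibroblast and pericyte markers to 227 to 610 CPM against 672 to 929 CPM, with 4 of 4 lower. The 5 androgen-responsive kidney genes in a list summed to 5451 to 20457 CPM against 1529 to 3609 CPM. Kap can outweigh the others in such a sum. In spaced UUO libraries with Xist counts its median was 1319 CPM, and that of Odc1, the next, 154 CPM. All 4 libraries labelled PdgfbKO UUO had both Xist and Y-linked counts, as had 2 of 4 PdgfbWT UUO libraries, and the other 2 had Xist counts. The study lists mostly female controls and more male than female knockouts for this arm, and which of them were sequenced is not given. Genotype and sex may thus be unbalanced in this contrast. With Xist as a covariate 6 genes passed between the genotypes in UUO kidneys, where 12.8% of genes did. With all 12 groups in 1 fit 4 did, where 2.13% of genes did, and Slc22a2 (0.79, adjusted p = 0.123) and Slc22a12 (1.11, adjusted p = 0.592) lost the call. The part of the other shifts in the transporter values was not tested.

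Among spaced libraries, the transporter genes also differed between libraries with Y-linked counts and libraries with Xist counts, a grouping made after the data were seen. Each kidney had 5 libraries with Xist counts, 9 with Y-linked counts and 1 with both. In CL kidneys, Slc22a6 had 176 to 389 CPM in libraries with Xist counts and 472 to 1319 CPM in libraries with Y-linked counts. Slc47a1 had 352 to 457 against 573 to 777 CPM and Slc22a12 484 to 800 against 1020 to 1636 CPM. For these genes the classes did not overlap in CL kidneys. In UUO kidneys they did, with 89.8 to 205 against 144 to 609 CPM for Slc22a6. Slc47a1 had 166 to 261 against 245 to 392 CPM there, and Slc22a12 247 to 553 against 511 to 964 CPM. Slc22a8 went the other way and overlapped in CL kidneys, with 261 to 421 CPM in libraries with Xist counts and 63 to 298 CPM in libraries with Y-linked counts. In UUO kidneys Slc22a8 had 45.1 to 90.7 against 8.92 to 42 CPM, which did not overlap. The share of all genes whose classes stood apart was not computed.

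In a fit with group as a covariate, Slc22a6 was higher in libraries with Y-linked counts by 0.99 on the log2 scale in the ABTAA arm (SE 0.14, adjusted p = 7.6e-06) and by 1.28 in the Veptp arm (SE 0.19, adjusted p = 5.19e-05). Slc22a2, Slco4c1, Slc47a1, Abcc2 and Slc22a12 were higher in both arms too, by 0.37 (Abcc2, ABTAA arm) to 1.89 (Slco4c1, Veptp arm). That made 6 of 9 genes higher in each arm, where 2.85% and 4% of genes were. Slc22a8 went the other way, at -0.66 in the ABTAA arm (SE 0.14, adjusted p = 0.00301), where 2.08% of genes were lower, and -0.99 in the Veptp arm (SE 0.32, adjusted p = 0.0612), where it did not pass and 2.48% were lower. Slc22a4 (-0.34 in each arm, adjusted p = 0.328 and 0.288) and Slc22a5 (-0.09 and 0.19, adjusted p = 0.783 and 0.571) did not pass. Libraries of the same number may share a mouse, in the Veptp arm and for the numbers 9, 11 and 12 of ABTAA-treated mice. The fit counted each library on its own, and its p-values leave that out.

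**Figure D5:**
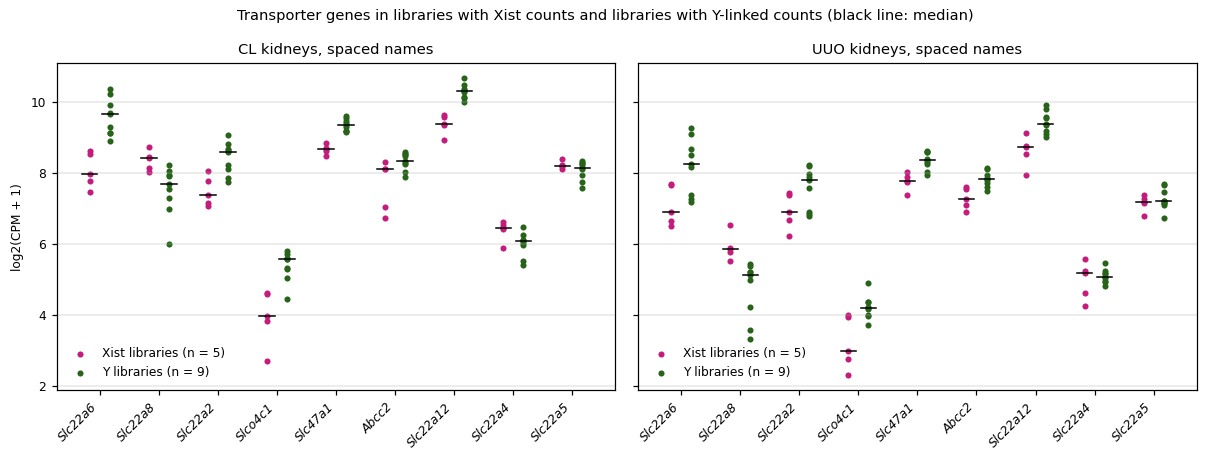
Level of each transporter gene, as log2(CPM + 1), in spaced libraries with Xist counts and with Y-linked counts, CL kidneys on the left and UUO kidneys on the right, with black lines at medians. Slc22a6, Slc47a1 and Slc22a12 are higher and Slc22a8 is lower in the libraries with Y-linked counts.

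Across libraries the 9 genes fell into sets by the same division. Over all 75 libraries, all 36 pairs correlated positively, with the shift between kidneys and name forms included. After the mean of each group and form was subtracted, 23 of 36 pairs stayed positive (Spearman rho -0.51 to 0.87, median 0.275). The 15 pairs among Slc22a6, Slc22a2, Slco4c1, Slc47a1, Abcc2 and Slc22a12 had rho of 0.49 to 0.87, highest for Slc22a6 with Slc22a12. The 3 pairs among Slc22a8, Slc22a4 and Slc22a5 had 0.34 to 0.39. The 18 pairs between these sets had -0.51 to 0.21, and Slc22a8 with its neighbour Slc22a6 had -0.31. These are descriptions over libraries that share depth scaling and classes, and the sets were drawn after the values were seen.

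By group mean, all 6 CL groups stood above all 6 UUO groups for 7 of the 9 genes. The share of all genes with this order was not computed. For Abcc2, 5 of the 6 highest groups were CL groups. The means pool the name forms, of which the Pdgfb groups hold plain names alone, and the order for Slc22a12, with its wide difference between forms, is not given. Among the other 8 genes, PdgfbWT UUO was the lowest group for all but Slc22a4, for which IgG UUO was (27.0 ± 7.28 CPM, SD, n = 8). Between neighbours in the orders of these 8 genes, at most 1 of 11 steps was larger than the larger SD of the pair. The genes most like Slc22a8 over the 75 libraries were Papss2 (rho 0.901), Tmem52b (0.891) and Acss1 (0.89). Those most like Slc22a6 were Acy3 (0.906), Amacr (0.903) and Slc17a3 (0.899). Slc17a3, for an organic anion and urate carrier, was also among the 3 most like Slc22a2 (0.917) and the most like Slc47a1 (0.929).

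Among other genes of organic ion and drug transport, more passed as lower than as higher with UUO in each control group. Of 39 listed, 29 were tested in the ABTAA arm, and 16 were lower and 2 higher with UUO in IgG (median log2 fold change -1.01), where 18.4% of all genes were lower and 16% higher. In VeptpWT 13 of 33 were lower and 3 higher (8.38% and 10% of all genes), and in PdgfbWT 19 of 32 were lower and 4 higher (19.4% and 17.9%). Among genes of the lists called in all 3 control groups, 12 fell and 1 rose. Slc22a7, for the organic anion carrier OAT2, fell most, with log2 fold changes of -2.82 in IgG (SE 0.46, adjusted p = 7.91e-06), -2.42 in VeptpWT (SE 0.45, adjusted p = 0.000256) and -3.16 in PdgfbWT (SE 0.29, adjusted p = 6.61e-09). Slc22a28 (-1.44, -1.73 and -3.02), Slc22a22 (-2.05, -1.55 and -2.11) and the dicarboxylate carrier gene Slc13a3 (-1.23, -0.98 and -1.97) followed. The prostaglandin transporter gene Slco2a1 rose (0.79, 0.93 and 0.69). Slc22a28 missed the threshold in VeptpWT without CL replicate 5 or 7 or UUO replicate 3 or 5 (adjusted p = 0.0503 to 0.055), and Slco2a1 in PdgfbWT without CL replicate 1 (0.5, adjusted p = 0.0593). Without the numbers 3, 4, 7 and 8, Slc22a28, Slc22a22, Slc13a3 and Slco2a1 all missed it in VeptpWT (adjusted p = 0.0537 to 0.247). In VeptpWT, Slc22a28 was also lost without TMM scaling (adjusted p = 0.0643), among plain (0.104) or spaced names alone (0.0517) and without libraries with both Xist and Y-linked counts (0.0605), Slc22a22 without TMM scaling (0.0577) and Slco2a1 among plain names (0.117). In IgG, Slc22a28 was lost among plain names (-0.65, adjusted p = 0.248) and without libraries with both counts (0.0606), as was Slco2a1 (0.0954 and 0.0859), and Slco2a1 was lost in PdgfbWT without those libraries (0.338).

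The 11 partner genes, which hold the scaffolds Pdzk1 and Slc9a3r1, dicarboxylate and monocarboxylate carriers and transcription factors, had 6 lower and 0 higher in IgG, 4 and 0 in VeptpWT, and 9 and 1 in PdgfbWT, beside the same shares of all genes. Both lists together had 17 genes lower in VeptpWT, a count that was 27 with form as a covariate, 9 without TMM scaling, 8 among plain names, 11 without libraries with both Xist and Y-linked counts and 5 without the numbers 3, 4, 7 and 8. Genes lower over all tested moved too, from 999 of 11916 to 2060 of 11916 with form and 550 of 11916 without TMM scaling. They were 520 of 7778 among plain names, 713 of 12383 without libraries with both counts and 299 of 11034 without the 4 numbers. Pdzk1, which anchors carriers at the urine side, changed by -1.05, -0.64 and -1.47. Hnf4a, a transcription factor of the proximal tubule, changed by -0.74 in IgG (adjusted p = 3.58e-06) and -1.06 in PdgfbWT (adjusted p = 2.82e-06), and had -0.59 in VeptpWT (adjusted p = 0.061). In UUO kidneys labelled PdgfbKO, 11 of 32 listed transporters stood higher than in PdgfbWT and 1 lower, where 12% of all genes were higher and 6.58% lower. Of the 11 partners 5 stood higher, Hnf4a and Pdzk1 among them (0.59 and 0.87). Both lists together had 17 genes called there, and 7 with all 12 groups in 1 fit. Over all genes 2034 of 10923 were called, and 321 of 12210 with all 12 groups. Of these lists, the 3 genes with the lowest adjusted p were Slc22a7 (log2 2.12, SE 0.29, adjusted p = 1.35e-05), Slc13a3 (1.5, SE 0.19, adjusted p = 6.64e-06) and Slc22a18 (1.11, SE 0.14, adjusted p = 6.2e-06).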

How the data were processed

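Smart-seq3 RNA libraries of whole mouse kidneys were analysed. According to the study's methods and the submitters' processing notes, each sample was run in 4 wells, reads were merged and mapped to mm10 with STAR 2.7.3a, duplicates were removed with UMI-tools 1.1.4, and the authors deposited raw gene counts from featureCounts (Subread 1.4.6-p5). For the annotation, the strand setting and reads with several map positions, the settings were not given in the sources used here. Columns of other samples numbered 0. From the deposited counts, edgeR 4.0.16 (R 4.3.3) was run per arm with TMM scaling, filterByExpr and the quasi-likelihood test on 4 groups, with Benjamini-Hochberg adjustment over all genes tested, at 0.05. CPM are counts over TMM-scaled library sizes (edgeR's cpm), and a pseudocount of 1 was used for plots. The fits were first tested on simulated data. DESeq2 1.42.0 and the other alternatives are described in the closing section. Likeness was Spearman's rho over genes with a mean count of at least 10. Depth was 172827 to 2341800 counts a library, and floors cover counting error only.

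The 9 genes and all lists were chosen with earlier results of these data known. All 9 are reported in every comparison. Of the other listed genes, up to 4 that fell and up to 4 that rose most in all 3 control groups, and the 3 with the lowest adjusted p in PdgfbKO against PdgfbWT UUO, are named, and Pdzk1, Hnf4a and genes of overlap or likeness were named besides. Numbers 9, 11 and 12 of spaced library names paired CL and UUO libraries of ABTAA-treated mice (correlations of deviations from group means 0.344, 0.168 and 0.135).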

Additional observations from a re-analysis of the deposited data

Results flagged for a closer look

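A single library stood apart from the rest of its group in 8 of 108 sets of 1 gene and 1 group by Dixon's criterion, which chance meets in about 1 of 20 sets. Slc22a6 had 1011 CPM in IgG CL replicate 2, where the other libraries had 176 to 568 CPM. Slc22a8 had 104 CPM in IgG UUO replicate 2 (others 14.2 to 56.7) and 218 CPM in VeptpKO UUO replicate 4 (others 20.9 to 90.7). Slco4c1 had 37.2 CPM in PdgfbWT CL replicate 1 (others 12.6 to 16.3). Abcc2 had 275 CPM in IgG UUO replicate 8 (others 118 to 188) and 352 CPM in PdgfbKO CL replicate 1 (others 171 to 184). Slc22a4 had 49.0 CPM in VeptpWT UUO replicate 2 (others 23.5 to 35.4), and Slc22a5 had 206 CPM in VeptpWT UUO replicate 8 (others 97.7 to 143).

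All 8 stood above their groups. Both libraries high in Slc22a8 and the library high in Slc22a4 had Xist and no more than 1 Y-linked count, and the 5 others had Y-linked counts and no more than 5 of Xist.

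The UUO responses of 5 genes differed between libraries labelled PdgfbKO and PdgfbWT by the interaction term of edgeR's quasi-likelihood test. The log2 differences were 1.62 for Slc22a6, 2.39 for Slc22a8, 0.97 for Slc22a2, 1.21 for Slc47a1 and 0.73 for Slc22a5, each with a smaller fall in the libraries labelled PdgfbKO. In each of the 5, all 4 PdgfbKO UUO libraries were above all 4 PdgfbWT UUO libraries.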

How the results depend on the processing

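Alternatives were other scaling (no TMM, DESeq2), filters, edgeR's exact test, other samples in the fit, and form, Xist or the replicate block as terms. Form with Xist, leaving out libraries with both Xist and Y-linked counts, and leaving out the numbers 3, 4, 7 and 8 were chosen after seeing the data. The cause of the changes was not tested.

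The count of genes lower with UUO in VeptpKO, 3, was 0 among plain names and without the numbers 3, 4, 7 and 8, was 1 with no TMM, no filter, the exact test or the compared groups alone, and was 5 with Xist or with all 12 groups, 7 with form and Xist, and 8 with the replicate block. Leaving out 1 library gave 1 to 4. Genes lower over all tested moved too, from 414 of 11916 to 0 of 7778 among plain names and 14 of 11034 without those numbers. They were 759 of 11916 with Xist and 855 of 12210 with all 12 groups. In VeptpWT, 6 became 2 without those numbers, where 299 of 11034 genes were lower, against 999 of 11916. In ABTAA, 6 became 2 among plain names, where 390 of 8898 genes were lower, against 1201 of 9579. In PdgfbKO, 1 became 2 with no filter or with Xist, and 0 with all 12 groups. Over all genes 331 of 25061, 385 of 10923 and 6 of 12210 were lower in these settings, against 262 of 10923. The Pdgfb difference, 5, was 3 with no TMM and 0 with all 12 groups, where the log2 values stayed near theirs, and 4 to 6 on leaving out 1 library. Genes differing between forms in the Veptp arm, 5, were 8 with no TMM and 2 with Xist. Over all genes 7438 of 11916 differed, 8517 with no TMM and 6777 with Xist. The UUO response by form, 0, was 1 in the ABTAA arm with no filter or without libraries with both counts, and 1 in the Veptp arm with no filter or with Xist, Slc22a8 each time. Over all genes 121 of 24646 and 144 of 10012 passed in the ABTAA arm, and 204 of 24538 and 86 of 11916 in the Veptp arm.

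Without TMM the genes lower and higher with UUO, 1201 and 1219 in ABTAA, 414 and 533 in VeptpKO and 262 and 430 in PdgfbKO, were 825 and 1559, 244 and 607, and 156 and 560.

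Directions turned as follows (log2). Slco4c1 with UUO in IgG was 0.07 among plain names. Slc22a4 in PdgfbKO against PdgfbWT UUO was -0.09 with no TMM. Between forms in the Veptp arm with Xist, Slc22a6 was -0.1, Slc22a8 0.02, Slco4c1 -0.72, Abcc2 -0.08 and Slc22a4 0.15, and Slc22a4 was 0.45 with no TMM, 0.08 with no filter, 0.02 without the 4 numbers and 0.0 otherwise. On leaving out 1 library, PdgfbKO values with UUO ran from -0.54 to 0.26 (Slco4c1), -0.32 to 0.17 (Abcc2) and -0.24 to 0.22 (Slc22a12), and Slc22a4 between forms in the Veptp arm from -0.04 to 0.07. In the block, Slc22a6 in VeptpKO against VeptpWT UUO was -0.0 and Slc22a8 in CL -0.2.

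In the replicate block, on spaced libraries alone, 9 genes were lower with UUO in ABTAA (17% of all genes, 8 and 13.1% unpaired), 7 in VeptpWT (11.9%) and 8 in VeptpKO (14.9%). There Slc22a5 in VeptpWT did not pass (-0.32, adjusted p = 0.155) and Slc22a6 in VeptpKO did (-1.16, adjusted p = 2.79e-06). The 8 Veptp numbers had correlations of 0.074 to 0.477 (mean 0.262, and -0.037 between other numbers). Libraries of the same number had the same class of Xist or Y-linked counts, except number 4. The numbers were not taken as pairs, since 1 correlation was under 0.1, 4 of the 8 carry conflicting genotype labels and not every library correlated best with its own number. Leaving out libraries with both Xist and Y-linked counts left none in PdgfbKO UUO. Library depth limits Slco4c1 most, with a median of 12 counts.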
